A study of Mus musculus with 36 samples.

Results

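The collagen chain genes of the mouse lung were described across 10 groups of OVA-challenged and PBS-treated mice. They were taken as every gene whose symbol in the array annotation has the form Col, a number, a and a number. Of the 18193 genes with 1 symbol, 42 met that rule, and each is given by its brightest probe set on average across the 36 arrays. A gene was tested if its log2 intensity exceeded 5 on at least 3 arrays. This left 25 of the 42 collagen genes and 11599 genes in all.

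Lung RNA was hybridised to single-colour Affymetrix mouse arrays, 1 per sample. OVA mice were immunised with 3 intraperitoneal injections of 50 µg ovalbumin on days 1, 4 and 7, then given 20 µg intranasally once a week for 9 weeks from day 12. PBS mice received saline on that schedule. All mice were labelled female and C57BL/6. WT mice were wild type. The sash mutation of Kit, carried by KitWsh mice and by the 3 engrafted kinds, leaves mice without mast cells. The KitWsh_MC, KitWsh_MCifngR and KitWsh_MCigeR mice were KitWsh mice with the engraftment labels MC, MCifngR and MCigeR, codes that the sources used here do not spell out. The genotype label of KitWsh_MCigeR mice also names FcεRIγ-/-, without saying whether the recipient or the engrafted cells had it. There were 4 arrays in each OVA group and for WT PBS mice, and 3 in the remaining PBS groups. Nothing in the labels says that replicates came from separate animals, and p-values then reflect only the spread among these arrays.

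Collagens are proteins of the extracellular matrix in which 3 chains wind into a triple helix. Fibril-forming types I, III and V give lung tissue its tensile strength and are made mainly by fibroblasts. Type IV forms the sheet-like network of basement membranes. The chains of Col4a1 and Col4a2 are in nearly all of them, and those of Col4a3, Col4a4 and Col4a5 in specialised ones such as the alveolar wall. Type VI makes beaded filaments around cells, type VIII a network best known in blood vessels and the eye, and a few collagens, among them types XIII and XXIII, span the cell membrane. Thickening of the collagen layers around airways is a known feature of long-lasting asthma. In bulk lung RNA, fewer cells of a type and less RNA per cell cannot be told apart.

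The upstream sequences of 3 collagen genes named in the results are shown as RefSeq gives them for GRCm38.p6. They are cut to the bases outside any annotated transcript. Col1a1 and Col5a2 had no promoter entry, and for Col23a1 only 9 bases remained after that cut. Col4a5 fell in challenged KitWsh_MC lungs, as did Col13a1, and Col8a2 gave the smallest adjusted p of any collagen gene between 2 groups. The Col4a5 stretch is chrX:141475169-141475369 on the plus strand, the Col13a1 stretch is chr10:61979207-61979358 on the minus strand, and the Col8a2 stretch is chr4:126286544-126286793 on the plus strand. Each runs 5′ to 3′, and capitals mark the GC box GGGCGG, the CCAAT box CCAAT or the TATA box TATAAA on either strand.
Col4a5: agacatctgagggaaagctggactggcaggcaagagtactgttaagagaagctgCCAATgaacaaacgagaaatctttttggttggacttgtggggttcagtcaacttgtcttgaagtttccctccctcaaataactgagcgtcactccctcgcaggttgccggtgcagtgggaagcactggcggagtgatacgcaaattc
Col13a1: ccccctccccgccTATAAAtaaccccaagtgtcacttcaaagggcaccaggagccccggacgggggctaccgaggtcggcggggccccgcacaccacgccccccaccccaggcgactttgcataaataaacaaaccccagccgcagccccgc
Col8a2: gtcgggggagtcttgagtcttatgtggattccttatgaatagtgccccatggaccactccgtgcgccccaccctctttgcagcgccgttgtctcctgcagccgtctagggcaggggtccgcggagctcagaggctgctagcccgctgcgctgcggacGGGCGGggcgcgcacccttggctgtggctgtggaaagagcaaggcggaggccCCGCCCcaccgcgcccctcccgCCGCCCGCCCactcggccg
The Col4a5 stretch holds 1 CCAAT box, the Col13a1 stretch 1 TATAAA far from the annotated start, and the Col8a2 stretch 4 GC boxes, of which the pair nearest the start overlap. Over the 250 bases before each start, a GC box stood in 14 of the 22 windows of tested collagen genes (63.6%), against 32.7% of the 32851 windows of all genes. A CCAAT box stood in 31.8% of the collagen windows, against 33.8% of all. TATAAA stood in 9.09% of the collagen windows and 12.4% of all. The windows of all genes were not limited to genes that passed the filter, as the collagen windows were. These shares describe letters in a window and were not tested. Promoter entries were found for 20 of the 25 tested collagen genes.

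The 25 tested genes covered the collagen classes unevenly. All 6 type IV chains were tested, as were 6 of 11 fibril-forming chains (Col1a1, Col1a2, Col3a1, Col5a1, Col5a2 and Col27a1). Among chains of types VI and VII, Col6a1, Col6a2, Col6a3 and Col7a1 were tested. The 4 fibril-associated chains tested, of 9, were Col12a1, Col14a1, Col16a1 and Col20a1. Col8a1 and Col8a2 of the network-forming class, Col18a1, whose C-terminal fragment is endostatin, and the membrane-spanning Col13a1 and Col23a1 made up the rest. Of the 17 genes that were not tested, 16 stayed under log2 5 on every array. Col24a1 was over it on 1 array, at 5.24.

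Among the untested genes were the cartilage collagens Col2a1, Col9a1, Col9a2, Col9a3, Col10a1, Col11a1 and Col11a2. All 7 stayed under log2 5 on every array. The other untested genes were Col5a3, Col6a4, Col6a5, Col15a1, Col17a1, Col19a1, Col22a1, Col25a1 and Col26a1. Of 12 cartilage markers on the array, 10 did not pass the filter either, among them Acan and Sox9. The means of the alveolar type 2 marker list lay between log2 12.5 and 14.0 on every array but KitWsh_MCigeR PBS array 2, where the mean was 10.8. Values under log2 5 are set largely by the background model and were not compared.

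KitWsh_MCigeR PBS array 2 stood apart from the other 35 arrays. Its median correlation with the rest was 0.543, against 0.882 to 0.971 for all others, and its beta-actin signal was 8.43 log2 units higher at the 3′ than at the 5′ end, against 1.17 to 6.23 elsewhere. Col6a3 read 2.96 on it and Col4a1 8.50. Because all groups share 1 estimate of the spread, it bears on every test, and calls below are also given without it. The array labelled WT OVA 4 and KitWsh_MCifngR OVA arrays 2 and 3 carried Y-linked transcripts (mean log2 of 7.28 to 7.71) against their female labels. On the array labelled WT OVA 4, Kit was also low, at 6.90, where the other WT arrays read 9.86 to 10.97. Where it matters, results are repeated without these 4 arrays.

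Over the 5 kinds of mice together, OVA challenge went with more RNA of 2 fibril-forming chains and less of 1 membrane-spanning chain. Col1a1, the main chain of type I collagen, rose by 1.15 ± 0.30 log2 units (standard error), or 2.22-fold, and Col5a2, a chain that nucleates type I fibrils, rose by 0.49 ± 0.13. Col23a1, a transmembrane collagen, fell by 0.59 ± 0.13. The adjusted p-values (limma, Benjamini-Hochberg over all 11599 genes) were 0.00978, 0.00802 and 0.00244. Without KitWsh_MCigeR PBS array 2 the differences were 0.90 ± 0.24, 0.45 ± 0.12 and -0.69 ± 0.10. These 3 of 25 collagen genes (12%) compare with 16.6% of all tested genes called in this comparison (8.79% higher and 7.8% lower), so the collagen share was near the background. Without that array 6 collagen genes were called, with Col6a2 higher and Col4a5 and Col14a1 lower in OVA mice, against 27.5% of all genes. The median difference of the 25 collagen genes was -0.10, and that of all tested genes 0.06. Without that array both signs turned, to 0.03 for the collagen genes and -0.02 for all genes.

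Col1a1 had the widest spread of the fibril-forming chains. In WT mice its log2 intensity was 10.14, 10.37, 9.72 and 8.66 on the OVA arrays, against 8.72, 7.99, 8.69 and 8.63 on the PBS arrays. Only the array labelled WT OVA 4 overlapped the PBS range. In KitWsh mice it was 7.62, 8.55, 8.15 and 8.73 with OVA, against 8.39, 6.39 and 7.17 with PBS. In KitWsh_MC mice it was 7.94, 6.47, 6.80 and 8.36 with OVA, against 6.61, 7.15 and 6.54 with PBS. The groups overlapped in both kinds. In KitWsh_MCifngR mice it was 6.26, 8.20, 8.13 and 8.41 with OVA, against 7.81, 6.98 and 6.38 with PBS. In KitWsh_MCigeR mice it was 9.42, 7.97, 7.34 and 8.74 with OVA, against 7.62, 3.62 and 7.09 with PBS. The OVA mean was the higher in all 5 kinds, yet in none of them did the arrays separate fully, so the call rests on all 5 kinds. In WT mice alone the difference was 1.22 ± 0.64 (limma adjusted p = 0.37), and without the 4 doubted arrays it was 1.57 with an adjusted p of 0.0372. The second Col1a1 probe set gave 0.56 over the 5 kinds.

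The partner chains of Col1a1 gave smaller differences. Col1a2, the other chain of type I collagen, was higher in OVA mice of 4 kinds, and Col3a1, the type III chain that forms mixed fibrils with type I, in all 5. Neither passed the test over the 5 kinds: Col3a1 differed by 0.51 ± 0.19 (limma adjusted p = 0.067). Col3a1 lies next to Col5a2 on chromosome 1. Col5a2 was higher in OVA mice of 4 kinds, KitWsh being the exception. Its second probe set gave -0.01 over the 5 kinds, so the rise was seen by 1 of its 2 probe sets. Col5a1, the partner of Col5a2 in type V collagen, differed by -0.17 ± 0.12.

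**Figure D1:**
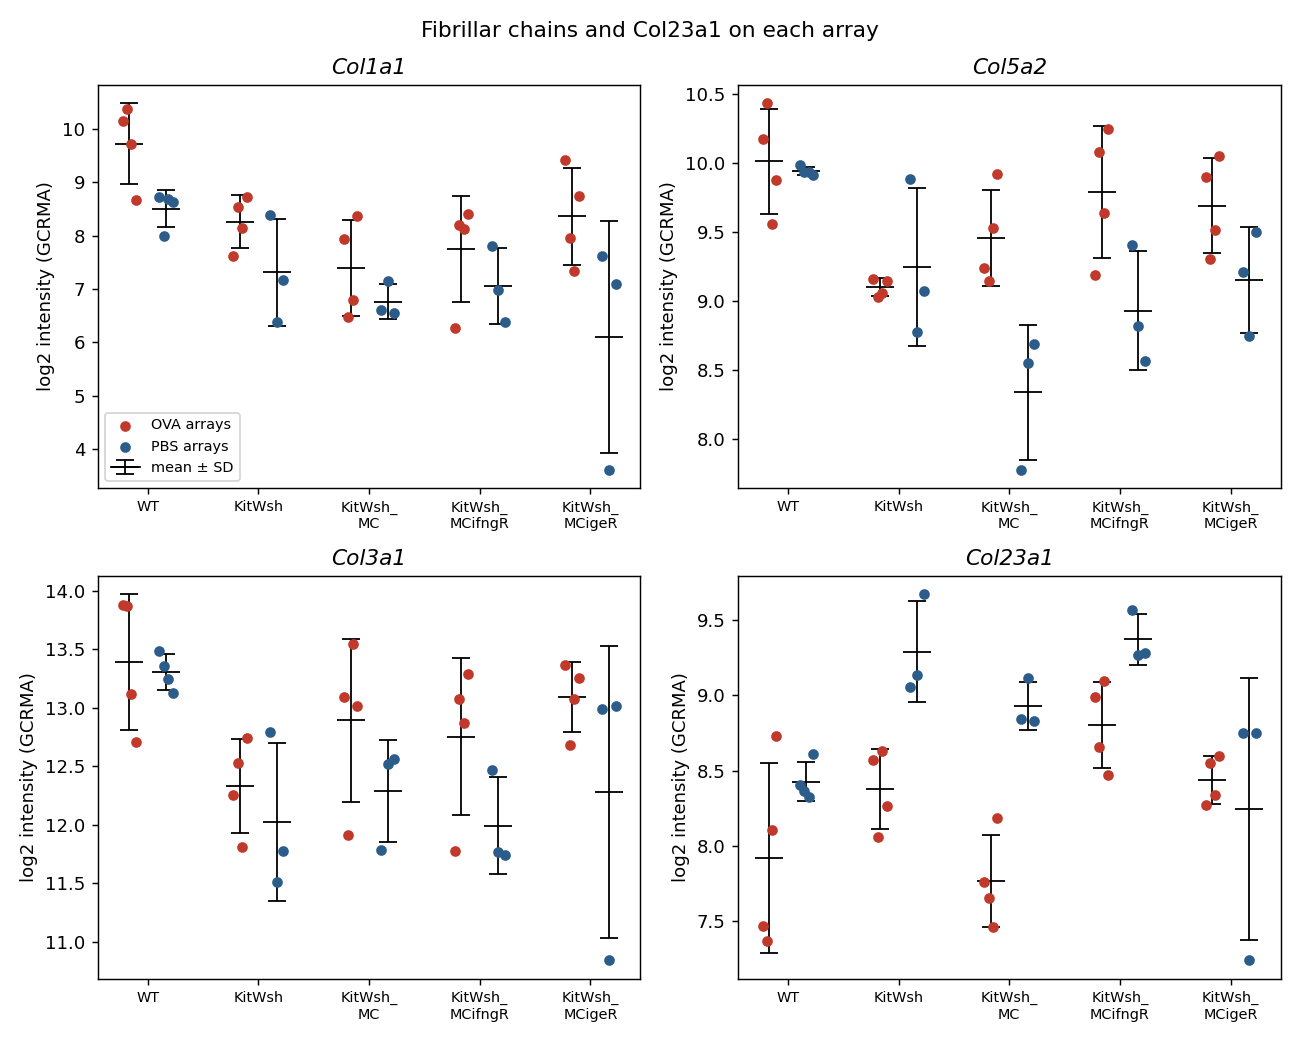
Log2 intensity of 3 fibril-forming chains and Col23a1 on each array (points; bars show the mean ± SD), OVA beside PBS for each kind of mouse. The OVA mean is the higher in all 5 kinds for Col1a1 and the lower in 4 for Col23a1, KitWsh_MCigeR being the exception, and the lowest Col1a1 point, 3.62, is KitWsh_MCigeR PBS array 2.

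Col23a1 separated OVA from PBS arrays in 3 of the 5 kinds. Its log2 intensity in KitWsh_MC mice was 7.76, 7.65, 7.46 and 8.18 with OVA, against 8.85, 9.11 and 8.83 with PBS. In KitWsh mice it was 8.57, 8.06, 8.63 and 8.27 with OVA, against 9.06, 9.14 and 9.67 with PBS. In KitWsh_MCifngR mice it was 8.99, 8.66, 9.09 and 8.47 with OVA, against 9.57, 9.27 and 9.28 with PBS. In these 3 kinds every OVA array lay below every PBS array. In WT mice it was 7.47, 7.37, 8.10 and 8.73 with OVA, against 8.41, 8.37, 8.32 and 8.61 with PBS. The array labelled WT OVA 4 lay above every WT PBS array and the other 3 OVA arrays below them. In KitWsh_MCigeR mice it was 8.27, 8.55, 8.34 and 8.60 with OVA, against 8.75, 7.24 and 8.75 with PBS, where the one low value is array 2. Without that array the OVA mean was lower in all 5 kinds. The gene's other probe sets gave 0.20 and -0.73 over the 5 kinds.

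In KitWsh_MC mice alone, challenge moved 5 of the 25 collagen genes, in both directions. Col5a2 rose by 1.12 ± 0.28 and Col6a2, a chain of the type VI filaments, by 1.09 ± 0.29. Col4a5, a chain of the specialised type IV network, fell by 1.09 ± 0.27, Col23a1 by 1.17 ± 0.29 and Col13a1, a transmembrane collagen of cell contacts, by 0.62 ± 0.19. The limma adjusted p-values were 0.016, 0.0199, 0.0136, 0.0151 and 0.0437 in that order. The share called in these mice was 20% of the collagen genes and 6.52% of all tested genes (3.88% higher and 2.64% lower). With that outlying array left out, the counts were 8 collagen genes and 20.5% of all genes, and the genes added were Col27a1, higher, and Col4a3 and Col4a4, lower. The collagen median was 0.27 and that of all genes 0.01.

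The 5 genes, picked by the test on these same arrays, also separated the groups fully. The share of all genes that did so was not counted, so the separation adds no support to the calls. Col4a5 read 9.38, 9.55, 9.89 and 9.94 in OVA mice, against 10.72, 10.71 and 10.89 in PBS mice. Col6a2 read 10.15, 10.46, 9.60 and 9.77 in OVA mice, against 8.96, 9.23 and 8.51 in PBS mice. Col5a2 read 9.24, 9.14, 9.52 and 9.92 in OVA mice, against 7.78, 8.55 and 8.68 in PBS mice. No OVA array lay within the PBS range of its gene. Col13a1 read 8.21, 8.76, 8.88 and 8.50 in OVA mice, against 8.93, 9.36 and 9.32 in PBS mice. The second Col6a2 probe set gave 1.03, close to the first, and that of Col5a2 gave 0.41. The second Col4a5 probe set gave -0.05. The calls were sensitive to the number of arrays: leaving out KitWsh_MC PBS array 3 left 1 of the 5. Col13a1 was not called with quantile normalisation or centred arrays, and Col6a2 not with centred arrays. Averaging a gene's probe sets lost Col4a5 and Col23a1. With the compared groups alone, Col5a2, Col6a2 and Col13a1 were not called. Col5a2 was also lost without KitWsh_MC OVA array 4 or PBS array 1.

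Col4a3 and Col4a4 also had lower means with OVA in these mice, without passing the test on all arrays. Col4a3, the partner of Col4a5 in the alveolar network, read 7.18, 6.22, 7.24 and 8.08 in OVA mice, against 8.27, 8.04 and 8.71 in PBS mice. The difference of -1.16 ± 0.48 had a limma adjusted p of 0.154, and of 0.0137 without KitWsh_MCigeR PBS array 2. Col4a4, which lies next to Col4a3 on chromosome 1, differed by -0.64 ± 0.27 with an adjusted p of 0.167, and of 0.0453 without that array. Every Col4a4 OVA array lay below every PBS array, and both of its other probe sets were lower too. The median of the 6 type IV chains was -0.38, and that of the 6 fibril-forming chains 0.58. The lowest Col4a3 value was on KitWsh_MC OVA array 2, whose beta-actin difference of 6.23 was the highest after the array set apart above. The part of RNA quality in the result was not tested. The beta-actin difference was 2.21 to 6.23 on the KitWsh_MC OVA arrays and 2.33 to 3.41 on the PBS arrays.

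**Figure D2:**
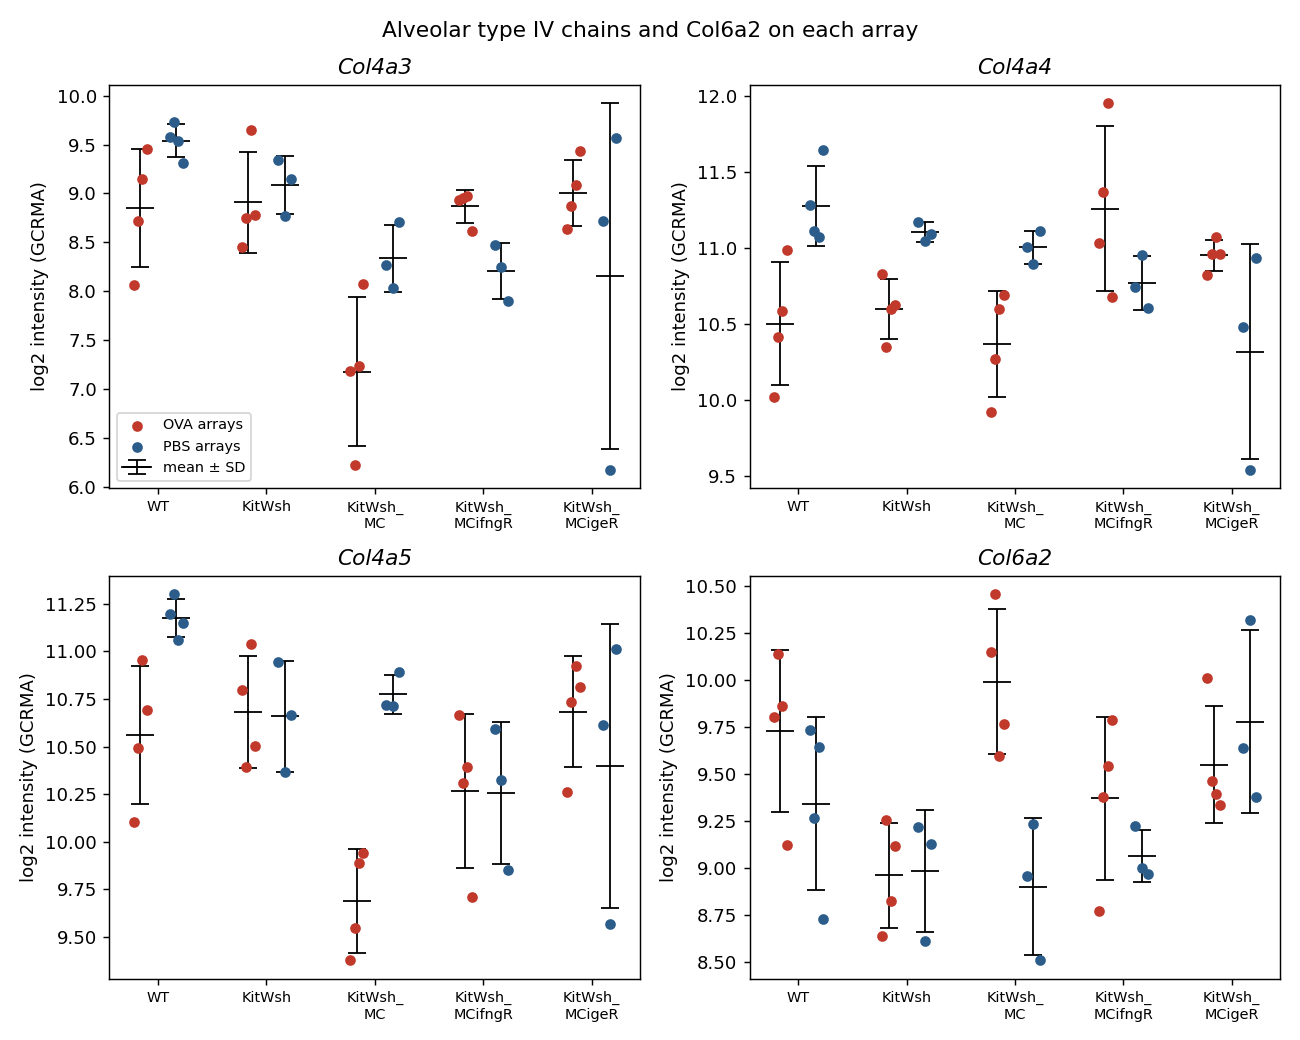
Log2 intensity of Col4a3, Col4a4, Col4a5 and Col6a2 on each array (points; bars show the mean ± SD), OVA beside PBS for each kind of mouse. In KitWsh_MC mice all 4 OVA arrays lie below the PBS arrays for Col4a4 and Col4a5 and above them for Col6a2.

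Genes that act on collagen were followed from lists. Of 19 tested genes for collagen folding and modification, 5 rose and 1 fell with OVA over the 5 kinds. Serpinh1, the collagen chaperone HSP47, rose by 0.58 ± 0.13 (limma adjusted p = 0.00383), and by 1.47 ± 0.30 in KitWsh_MC mice, where it was the only one of the 19 called with all arrays and 1 of 5 without KitWsh_MCigeR PBS array 2. Creb3l1, a transcription factor that switches on collagen genes, rose by 0.75 ± 0.14. Plod1 and Plod3, which hydroxylate lysines of the chains, and Colgalt1, which adds galactose to them, rose by 0.71, 0.68 and 0.34, while Colgalt2, a second such enzyme, fell by 0.64. None of the 9 genes for maturation and crosslinking was called with all arrays, and 3 were lower without KitWsh_MCigeR PBS array 2. Lox, the crosslinking oxidase, differed by 0.41 ± 0.29. The median differences of these 2 lists were 0.27 and 0.11, beside 0.06 for all genes. Without that array they were 0.08 and 0.08, beside -0.02. In KitWsh_MC mice 6.52% of all genes were called, and 20.5% without that array.

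Among proteins that coat collagen fibrils, more were called lower than higher. Of 16 tested, 6 fell over the 5 kinds: Lum, Fmod, Ogn, Aspn and Omd, small proteoglycans that bind fibrils, and Dpt, a fibril-binding protein. Of all tested genes 7.8% fell and 8.79% rose, and the counts in this paragraph stand beside these shares. Lum fell by 1.21 ± 0.25 (limma adjusted p = 0.00166) and Dpt by 0.41 ± 0.08. The 3 that rose were Tgfbi, a collagen-binding protein induced by TGF-beta, by 0.99 ± 0.19, Thbs1, an adhesive glycoprotein, by 0.91 ± 0.24, and the large proteoglycan Vcan, by 0.76 ± 0.23. Of 5 collagen-degrading proteases, Ctsk, the collagenolytic cathepsin K, rose by 1.77 ± 0.36 and Mmp14, a membrane-bound collagenase, by 0.81 ± 0.14. Among 7 collagen receptors, Lair1, an inhibitory receptor of leukocytes, rose by 1.14 ± 0.17, Adgrg1, an adhesion receptor that binds type III collagen, rose by 0.46, and Itga1, a collagen-binding integrin chain, fell by 0.54. Of 16 genes of TGF-beta signalling, none rose and 2 fell, Ltbp3, which binds latent TGF-beta, by 0.50 and Smad3, which carries its signal to the nucleus, by 0.23. The count that fell was 4 without KitWsh_MCigeR PBS array 2, with Tgfb2 and Ltbp1 added, beside 15.3% of all genes. Tgfb1 differed by 0.84 ± 0.36 with an adjusted p of 0.106.

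Markers of the cells that could carry these genes moved as well. Of 7 macrophage markers, 5 were higher and 1 lower in OVA mice over the 5 kinds. Of 12 fibroblast markers, 2 were lower (Wnt2 and Npnt) and none higher. Without KitWsh_MCigeR PBS array 2 the lower ones were 5, with Pdgfra, Pi16 and Fbln1 added. The shares of all tested genes were 8.79% higher and 7.8% lower, and 12.2% and 15.3% without that array. In KitWsh_MC mice 3 fibroblast markers fell, Npnt by 1.27, Wnt2 by 0.95 and Pdgfra by 0.87. The smooth muscle gene Acta2 rose by 0.75. In these mice 2.64% of all genes were lower and 3.88% higher. The mean of the fibroblast list ran between 8.40 and 9.03 on the KitWsh_MC OVA arrays, against 9.18 to 9.35 on the PBS arrays. The alveolar type 1 list ran between 11.80 and 12.17 on the OVA arrays, against 12.23 to 12.31 on the PBS arrays. Of 11 basement membrane partners of type IV collagen, the laminin chain genes Lama2 and Lamb1 fell by 1.32 and 0.77. Without KitWsh_MCigeR PBS array 2, 5 of the 11 were lower, beside 9.8% of all genes. The part of these shifts in the collagen differences was not tested.

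WT, KitWsh and KitWsh_MCifngR mice had no collagen gene called with all arrays, at limma adjusted p-values under 0.05. Unadjusted p-values under 0.05 were found for 5, 4 and 3 of the 25 collagen genes in these kinds, where 15.5%, 13.1% and 5.42% of all genes had one. The shares of all genes called at the adjusted threshold were 1.36%, 0.621% and 0.155%. In WT mice the nearest was Col13a1, which read 8.66, 8.71, 8.90 and 9.14 with OVA, against 9.29, 9.35, 9.44 and 9.50 with PBS. The difference was -0.54 ± 0.17, with an adjusted p of 0.0957, and the groups did not overlap. Col13a1 and Col4a4 were called in WT mice, both lower, when KitWsh_MCigeR PBS array 2 was left out, where 9.32% of all genes were called and 5.35% were lower. Col4a4 read 10.02, 10.41, 10.59 and 10.99 in WT OVA mice, against 11.28, 11.11, 11.07 and 11.65 in WT PBS mice. These groups did not overlap either, and the share of all genes without overlap was not counted. Without the 4 doubted arrays, Col1a1 was called higher in WT OVA mice and Col4a4, Col4a5, Col13a1 and Col23a1 lower. These were 20% of the tested collagen genes, near the 18.9% of all genes called under that setting.

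In KitWsh mice most collagen genes had a lower mean with OVA. The OVA mean was lower for 21 of 25 genes, with a median of -0.19 beside -0.10 for all genes. The median of all genes was thus also below 0, and the share of them with a lower OVA mean was not counted. Col8a2, a type VIII chain, read 6.53, 6.89, 7.02 and 6.90 with OVA, against 7.92, 7.62 and 7.79 with PBS, without overlap. Its difference of -0.94 ± 0.23 had a limma adjusted p of 0.0504, just over the threshold. The share of all genes without overlap in KitWsh mice was not counted. When KitWsh_MCigeR PBS array 2 was left out, Col8a2, Col23a1 and Col6a3 were called lower, where 6.55% of all genes were called and 5.16% were lower. In KitWsh_MCifngR mice the nearest gene was Col5a2, with a difference of 0.86 ± 0.28 and an adjusted p of 0.413, and no collagen gene was called without that array either, where 0.776% of all genes were.

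In KitWsh_MCigeR mice the calls depended on 1 array. With all arrays, Col1a1, Col4a1, Col4a2 and Col6a3 were called higher in OVA mice, by 2.26, 1.51, 1.69 and 2.63, where 19% of all genes were called and 16% were higher. Without PBS array 2 the differences were 1.01, 0.12, 0.27 and 0.25, and no gene of the 11599 passed limma's test, although 737 had an unadjusted p under 0.05, none of them a collagen gene. Col4a1 read 12.95, 12.81, 12.57 and 12.85 with OVA, against 12.50, 8.50 and 12.85 with PBS. Col6a3 read 10.28, 10.29, 10.12 and 10.69 with OVA, against 9.85, 2.96 and 10.33 with PBS. Apart from the second PBS array, the groups of both genes overlapped. Col4a2 likewise read 6.60 on that array and 10.78 and 10.94 on the other PBS arrays.

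**Figure D3:**
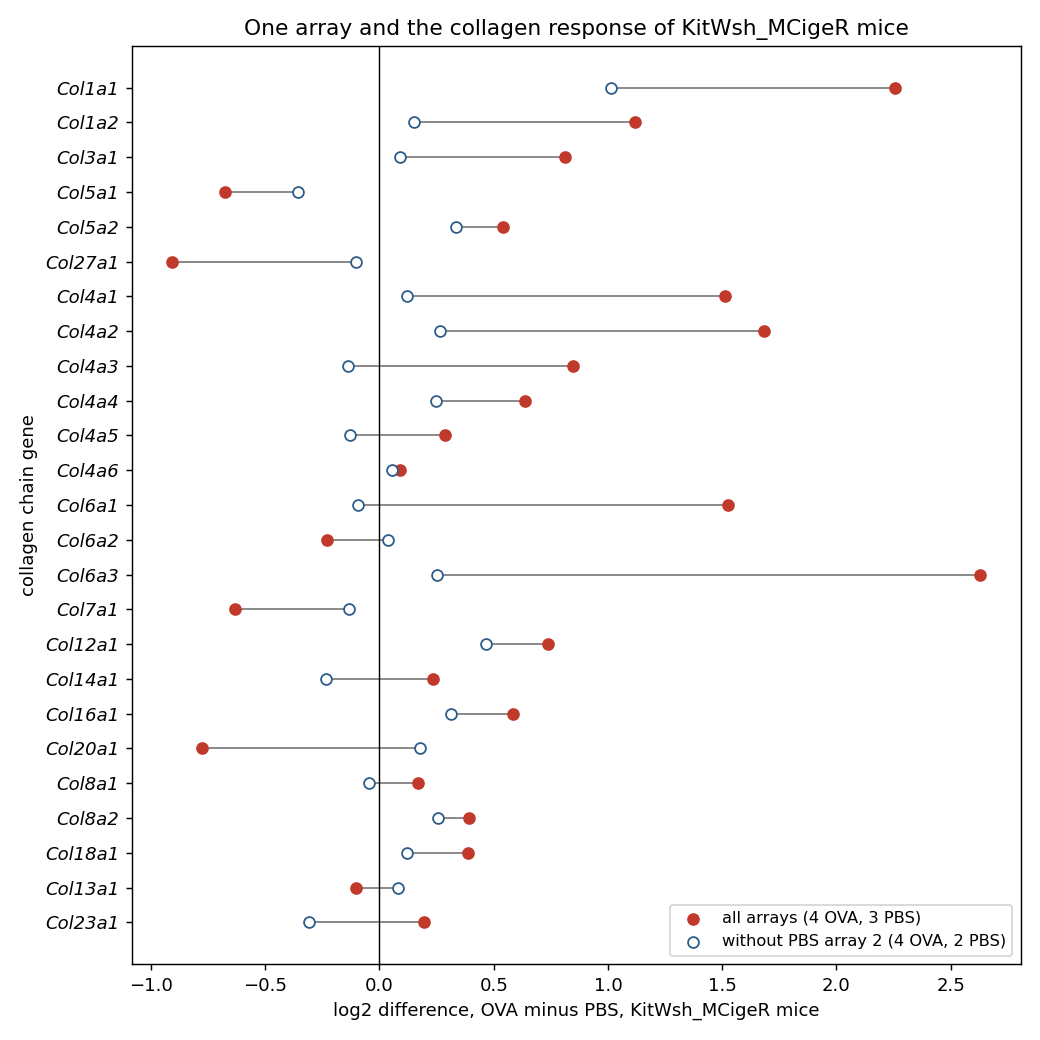
Log2 difference between OVA and PBS KitWsh_MCigeR mice for the 25 tested collagen genes, with all 7 arrays (filled points) and without PBS array 2 (open points). Col6a3 lies at 2.63 with the array and at 0.25 without it, and 9 genes lie on the other side of 0 without the array.

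The difference between kinds in the size of the response was tested directly. With all arrays no collagen gene was called in any of the 4 pairs, at limma adjusted p-values under 0.05, where the shares of all genes called were 0.00862% for KitWsh against WT, 0.517% for KitWsh_MC against KitWsh, 0.0345% for KitWsh_MCifngR against KitWsh_MC and 0.293% for KitWsh_MCigeR against KitWsh_MC. Unadjusted p-values under 0.05 were found for 5, 6, 6 and 10 of the 25 in that order of pairs, where 6.74%, 11.6%, 10.1% and 28.8% of all genes had one. The nearest between KitWsh_MC and KitWsh mice was Col5a2, whose response was larger in KitWsh_MC mice by 1.26 ± 0.40 (adjusted p = 0.149). Between KitWsh_MCifngR and KitWsh_MC mice the nearest was Col13a1, by 1.05 ± 0.26 (adjusted p = 0.123). Col13a1 had been lower with OVA in KitWsh_MC mice, and read 8.87, 9.16, 8.77 and 8.97 in KitWsh_MCifngR OVA mice, against 8.78, 8.47 and 8.27 in PBS mice. In each of these pairs 3 genes were called when KitWsh_MCigeR PBS array 2 was left out. Col5a2 and Col6a3 had a higher OVA minus PBS difference, and Col4a5 a lower one, in KitWsh_MC than in KitWsh mice, against 5.53% of all genes. Col13a1 and Col4a3 had a higher difference, and Col27a1 a lower one, in KitWsh_MCifngR than in KitWsh_MC mice, against 1.48% of all genes. No collagen gene was called without that array for KitWsh against WT or for KitWsh_MCigeR against KitWsh_MC, where 0.181% and 0.0259% of all genes were. Of the 4 pairs, the 3 other than KitWsh against WT share the KitWsh_MC arrays, and KitWsh against WT shares the KitWsh arrays with KitWsh_MC against KitWsh.

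**Figure D4:**
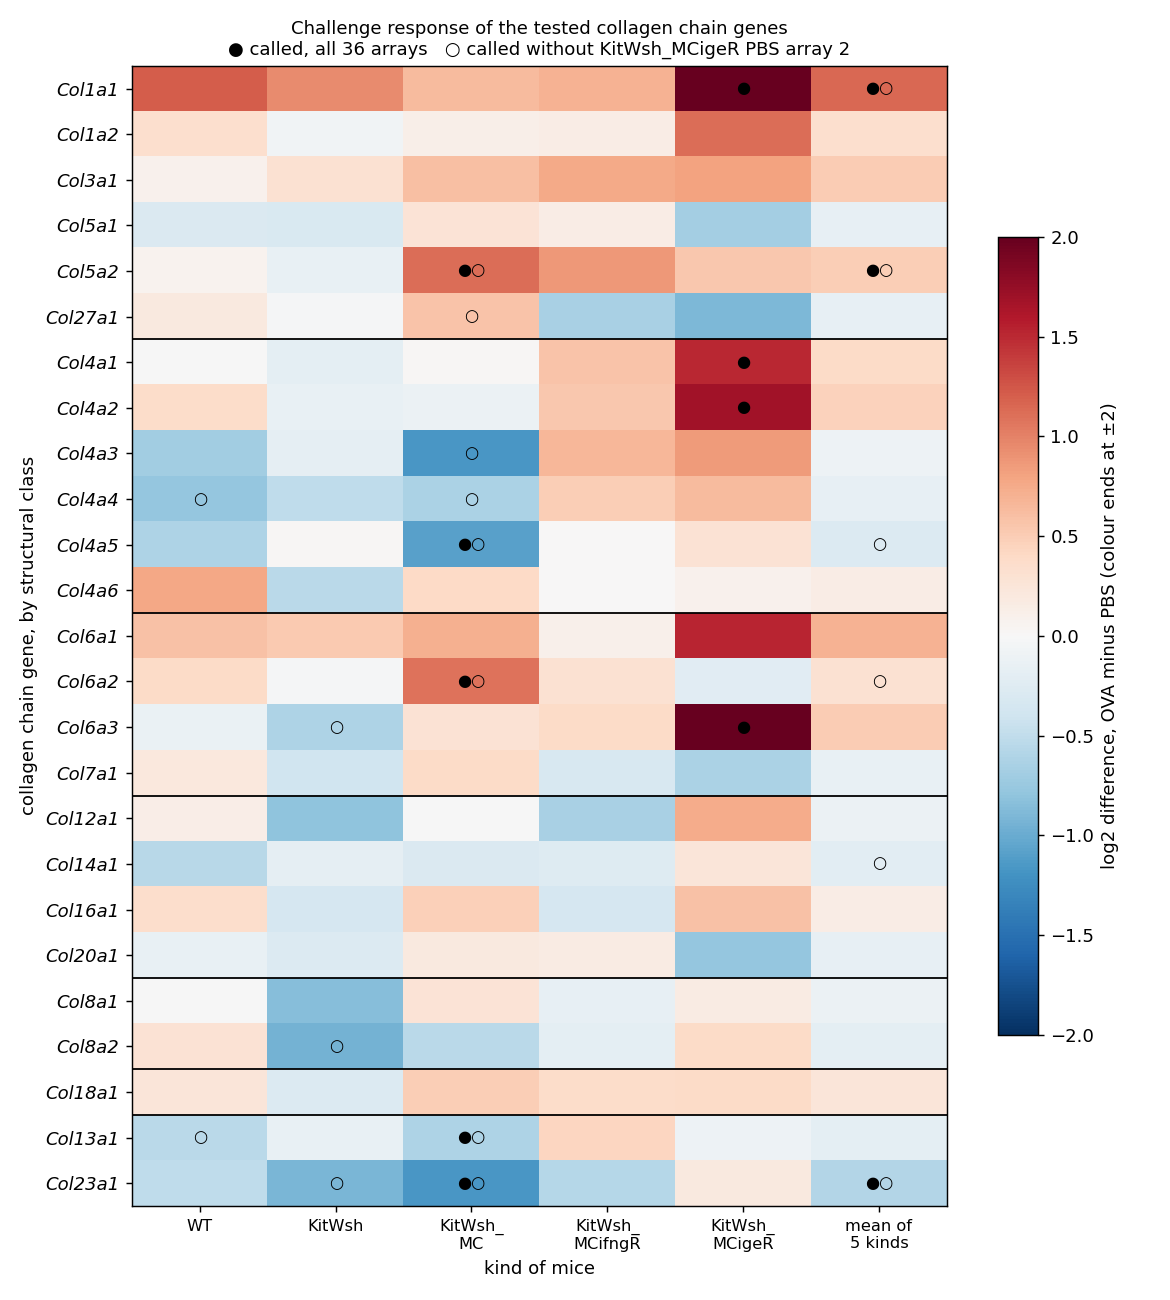
Log2 difference between OVA and PBS mice for the 25 tested collagen genes (rows, by class) in the 5 kinds of mice (columns), with all arrays. Col1a1 and Col3a1 are higher in OVA mice of all 5 kinds, and the type IV chains Col4a3 and Col4a5 are lowest in KitWsh_MC mice.

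Challenged mice of different kinds were also compared. In OVA mice, KitWsh_MC lungs had less Col4a5, by 0.99 ± 0.25, and less Col4a3, by 1.73 ± 0.44, than KitWsh lungs, and more Col6a2, by 1.03 ± 0.27. The limma adjusted p-values were 0.0118, 0.0128 and 0.0138. These 3 of 25 genes compare with 8.85% of all genes called. Without KitWsh_MCigeR PBS array 2 the counts were 10 collagen genes and 31.5%. In PBS mice of these kinds, a pair not tested, Col4a3 averaged 8.34 in KitWsh_MC and 9.09 in KitWsh lungs. Col4a5 averaged 10.78 and 10.66 there, and Col6a2 8.90 and 8.99. Col4a3 read 7.18, 6.22, 7.24 and 8.08 in KitWsh_MC OVA mice, against 8.46, 8.75, 9.65 and 8.78 in KitWsh OVA mice. Col6a2 read 10.15, 10.46, 9.60 and 9.77 in KitWsh_MC OVA mice, against 8.64, 9.26, 8.83 and 9.12 in KitWsh OVA mice. The groups of the 3 genes, picked by the test on these same arrays, did not overlap. The share of all genes without overlap was not counted. Other probe sets had the same signs, at -2.35 for Col4a5, -3.74 for Col4a3 and 0.61 for Col6a2. Leaving out KitWsh OVA array 3 left none of the 3 collagen calls.

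Other lists and array quality differed in this pair as well. Of 11 basement membrane partners, Lama3 was lower by 2.44 and Lama2 by 1.43, with a list median of -0.77. The counts were 8 lower and 1 higher, Hspg2, without KitWsh_MCigeR PBS array 2. Of 6 alveolar type 1 markers, Pdpn was higher by 0.92, while the list median was -0.12, and Hopx and Clic5 were lower without that array. Of 12 fibroblast markers, Npnt was lower by 1.31 and none was higher, and of 7 smooth muscle and myofibroblast markers, Acta2 was higher by 1.18 and none was lower. The mean of the fibroblast list ran between 8.40 and 9.03 on the KitWsh_MC OVA arrays, against 9.19 to 9.46 on the KitWsh OVA arrays, without overlap. The beta-actin difference was 2.21 to 6.23 on the KitWsh_MC OVA arrays, against 1.29 to 2.62 on the KitWsh OVA arrays. Their part in the collagen differences of this pair was not tested.

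KitWsh_MCifngR OVA lungs differed from KitWsh_MC OVA lungs in 5 collagen genes. Col8a2 was higher by 1.16 ± 0.21, Col4a3 by 1.69 ± 0.44, Col23a1 by 1.04 ± 0.27 and Col4a4 by 0.89 ± 0.25, and Col27a1, a fibril-forming chain best known from cartilage, was lower by 0.94 ± 0.30. The limma adjusted p-values were 0.00108, 0.0125, 0.0129, 0.0187 and 0.0395 in that order, and 13.2% of all genes were called. Without KitWsh_MCigeR PBS array 2, 13 collagen genes and 36.7% of all genes were called. In PBS mice of these kinds, a pair not tested, Col8a2 averaged 7.75 in KitWsh_MCifngR and 6.93 in KitWsh_MC lungs, and Col23a1 9.37 and 8.93. Col4a3 averaged 8.21 and 8.34 there, Col4a4 10.77 and 11.01, and Col27a1 7.68 and 7.40. Col8a2 read 7.62, 7.60, 7.92 and 7.05 in KitWsh_MCifngR mice, against 6.75, 6.15, 5.83 and 6.83 in KitWsh_MC mice. Col4a3 read 8.94, 8.95, 8.97 and 8.62 in KitWsh_MCifngR mice, against 7.18, 6.22, 7.24 and 8.08 in KitWsh_MC mice. Neither gene, picked by the test on these same arrays, overlapped between the groups. The share of all genes without overlap was not counted. Col27a1 read 7.44, 6.64, 6.98 and 7.02 in KitWsh_MCifngR mice, against 7.81, 8.48, 7.83 and 7.71 in KitWsh_MC mice, and its second probe set gave 0.21. Without the 4 doubted arrays, which leave 2 KitWsh_MCifngR OVA arrays, Col4a4 was no longer called (0.49, adjusted p = 0.0609) and the other 4 genes were. The third Col4a4 probe set gave -0.62. Col27a1 was not called under other scalings.

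Genes of the other lists differed in the same pair of groups. Of 11 basement membrane partners, Lama3 was higher by 2.23, Lama2 by 1.82 and Lamb1 by 0.97 in KitWsh_MCifngR OVA mice, and without KitWsh_MCigeR PBS array 2, 7 were higher and Hspg2 was lower. Of 16 fibril-coating proteins, Omd was higher by 1.94, Ogn by 1.30 and Dpt by 0.62, and none was lower, while 8 were higher without that array. Of 12 fibroblast markers, Pdgfra, Wnt2 and Npnt were higher, and without that array Tcf21 and Mfap4 were also higher and Cd34 lower. The mean of the fibroblast list ran between 9.15 and 9.31 on the KitWsh_MCifngR OVA arrays, against 8.40 to 9.03 on the KitWsh_MC OVA arrays. That of the skeletal muscle list ran between 2.77 and 9.10, against 2.63 to 3.06. Its highest array mean in any other group was 3.52, and 1 of its 7 genes passed the filter. The heart muscle list ran between 8.73 and 9.84, against 7.84 to 9.09. The beta-actin difference was 2.26 to 4.81 on the KitWsh_MCifngR OVA arrays and 2.21 to 6.23 on the KitWsh_MC OVA arrays. Their part in the collagen differences was not tested.

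In PBS mice, KitWsh lungs differed from WT lungs in 1 collagen gene. Col8a2 read 7.92, 7.62 and 7.79 in KitWsh mice, against 6.90, 6.90, 6.96 and 6.40 in WT mice, a difference of 0.99 ± 0.23 (limma adjusted p = 0.0265) without overlap. Of all genes 1.18% were called and 0.75% were higher. After KitWsh_MCigeR PBS array 2 was left out, Col12a1 and Col23a1 were also higher in KitWsh mice and Col3a1 was lower, against 7.92% of all genes. Col3a1 read 12.79, 11.52 and 11.78 in KitWsh PBS mice, against 13.49, 13.35, 13.25 and 13.12 in WT PBS mice. The call for Col8a2 was lost when any one of the 7 arrays compared was left out, and under both other scalings. The share of all genes without overlap in this pair was not counted, so the separation adds no support to the call.

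Several marker lists stood apart between these PBS groups. The list mean ran between 9.54 and 9.59 in KitWsh mice for fibroblast markers, against 9.25 to 9.38 in WT mice, and between 11.68 and 11.84 for endothelial markers, against 11.25 to 11.46 in WT mice. Alveolar type 1 markers ran between 12.23 and 12.38 in KitWsh mice, against 12.02 to 12.09 in WT mice, and T cell markers between 6.32 and 6.68, against 5.36 to 5.96 in WT mice. These 4 lists were higher on every KitWsh array. No single marker among their 12, 6, 6 and 4 genes was called with all arrays. Macrophage markers went the other way, between 8.65 and 8.97 in KitWsh mice, against 9.01 to 9.36 in WT mice. So did alveolar type 2 markers, between 13.43 and 13.51 in KitWsh mice, against 13.53 to 13.90 in WT mice. Without KitWsh_MCigeR PBS array 2, Cd34 of the fibroblast list, Cdh5 and Kdr of endothelium and Rtkn2 of alveolar type 1 cells were called higher. Of all tested genes, 5.63% were called higher without that array. The beta-actin difference was 1.74 to 2.48 in KitWsh mice and 1.17 to 1.77 in WT mice. The part of these shifts in the Col8a2 difference was not tested.

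Of the 25 tested collagen genes, 13 were called in 1 or more of the 13 comparisons with all arrays and 12 in none. The 12 were Col1a2, Col3a1, Col4a6, Col5a1, Col6a1, Col7a1, Col8a1, Col12a1, Col14a1, Col16a1, Col18a1 and Col20a1. With KitWsh_MCigeR PBS array 2 left out, 21 were called in 1 or more comparisons and 4 in none, Col1a2, Col4a6, Col6a1 and Col20a1. Col4a1, Col4a2 and Col6a3 were among the 13 only through KitWsh_MCigeR mice, where the calls depended on that array. The share of all genes called in 1 or more comparisons was not counted, so these totals have no background beside them. Single comparisons called up to 19% of all genes with all arrays and up to 36.7% without that array. In WT mice the challenge differences of the 12 lay between -0.56, for Col14a1, and 0.77, for Col4a6. In KitWsh_MC mice the highest of them was Col6a1, at 0.72 ± 0.70, and in the mean of the 5 kinds Col6a1 was again highest, at 0.69 ± 0.31 (limma adjusted p = 0.12). Without KitWsh_MCigeR PBS array 2 the mean difference of Col6a1 over the 5 kinds was 0.37 ± 0.19, level with Col3a1 at 0.37 ± 0.16. Col6a1 and Col6a2 lie side by side on chromosome 10, as Col4a1 and Col4a2 do on chromosome 8 and Col4a5 and Col4a6 on the X chromosome. Among the 18 tested genes with several probe sets over the floor, all probe sets of a gene had the same sign in 11 genes for the mean of the 5 kinds and in 16 for KitWsh_MC mice. A value of 1 probe set is therefore a value of that probe set, and need not stand for all transcripts of the gene.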

How the data were processed

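Lung RNA of 36 samples in 10 groups was measured on single-colour arrays. The deposited table holds log2 intensities. GCRMA, of no stated version, was the tool the authors used according to the submitters' processing notes. The values run from 2.19 to 15.9 and were used as deposited. GCRMA fits background by probe sequence, so values near its floor carry no order. Control probe sets (64) were left out.

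Of 45101 probe sets, 34958 had exactly 1 symbol in the array annotation, 932 had several and 9211 had none. The brightest probe set on average stood for its gene, and genes over log2 5 on at least 3 arrays were tested. All 42 collagen genes matched RefSeq by Entrez ID under the same symbol. The 10 group means were fitted with limma 3.58.1 under R 4.3.3 (26 residual degrees of freedom) for 13 comparisons, and genes were called at a two-sided Benjamini-Hochberg adjusted p under 0.05 over all 11599 genes. The procedure was tested on simulated data. Each difference is given on the log2 scale with its standard error. The highest correlation of any 2 arrays was 0.994, and none were identical. The number of arrays limits the precision.

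The collagen genes and the gene lists were chosen with earlier results of these data known. The genes named with values were Col1a1, Col1a2, Col3a1, Col4a1 and Col4a2 and those called in any comparison. Alternatives were other scalings, no filter, averaged probe sets, array weights, a beta-actin covariate, the compared groups alone and leaving out arrays. Promoter sequences are RefSeq's for GRCm38.p6.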

Additional observations from a re-analysis of the deposited data

Results flagged for a closer look

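Over 15 collagen genes, 90 sets of 4 arrays were examined for 1 value far from the other 3, and 9 were found. Chance flags about 1 in 20 such sets.

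On KitWsh_MCifngR OVA array 1, Col1a1 read 6.26, against 8.13 to 8.41 on the other 3 arrays, and Col1a2 read 11.24, against 12.01 to 12.13. Both chains of type I collagen were thus low on the same array, whose beta-actin difference of 4.81 was the highest of that group. The part of RNA quality was not tested. On WT PBS array 2, Col1a1 read 7.99, against 8.63 to 8.72. On KitWsh OVA array 4, Col1a2 read 12.08, against 11.82 to 11.86. Col27a1 read 8.48 on KitWsh_MC OVA array 2, against 7.71 to 7.83, and 7.00 on WT OVA array 1, against 7.30 to 7.35. On KitWsh_MCifngR OVA array 4, Col4a3 read 8.62, against 8.94 to 8.97. Col6a3 read 10.26 on WT PBS array 3, against 10.43 and 10.44, and Col8a2 read 6.40 on WT PBS array 4, against 6.90 to 6.96.

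Col27a1 lay on opposite sides of the PBS arrays in 2 kinds of mice. Every KitWsh_MCifngR OVA array lay below every PBS array of that kind, and every KitWsh_MC OVA array above every PBS array. The difference between the responses was -1.22, with a limma adjusted p of 0.329 with all arrays and of 0.0116 without KitWsh_MCigeR PBS array 2.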

How the results depend on the processing

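The number of collagen genes called was recomputed under each alternative, and none of the 21 called differences changed sign. Differences that were not called did change sign in places, as the plot of KitWsh_MCigeR mice shows. No paired analysis was possible because the sample titles are numbered 1 to 36 in one run, so no number is shared between groups. Over the 5 kinds (3 genes called), Col1a1 and Col5a2 were called in all 43 settings and Col23a1 in 42, the exception being averaged probe sets. The count was 6 with quantile normalisation, 5 with centred arrays, 5 with the mean of probe sets, 6 without the 4 doubted arrays, 15 with array weights and 6 with the beta-actin covariate, where the shares of all genes called were 20.9%, 18.7%, 17.9%, 31.2%, 49.7% and 23.5%. With array weights, the counts were 9, 10, 10, 11 and 0 in WT, KitWsh, KitWsh_MC, KitWsh_MCifngR and KitWsh_MCigeR mice, where 44%, 39.8%, 31.4%, 17.5% and 0.879% of all genes were called. For the response differences they were 6, 10, 10 and 4 in the order KitWsh against WT, KitWsh_MC against KitWsh, KitWsh_MCifngR against KitWsh_MC and KitWsh_MCigeR against KitWsh_MC, beside 21.7%, 19.1%, 21.7% and 11.3% of all genes. They were 9 and 11 for the 2 pairs of OVA groups and 15 for the PBS pair, beside 30.2%, 36.6% and 41.8%.

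Without the 4 doubted arrays the counts were 5, 4, 8 and 0 in WT, KitWsh, KitWsh_MC and KitWsh_MCigeR mice (18.9%, 9.6%, 22.9% and 0% of all genes), 1, 2 and 2 for the first 3 response differences (0.569%, 6.89% and 1.3%), 11 for OVA KitWsh_MC against KitWsh (33.9%) and 4 for PBS KitWsh against WT (9.49%). With the beta-actin covariate they were 2, 2 and 0 in WT, KitWsh and KitWsh_MCigeR mice (6.86%, 3.41% and 0%), 1 for the response of KitWsh_MC against KitWsh (3.29%), 2 for KitWsh_MCifngR against KitWsh_MC (0.448%) and 3 for the PBS pair (6.39%). With only the compared groups they were 3, 3, 2 and 0 in WT, KitWsh, KitWsh_MC and KitWsh_MCigeR mice (11.5%, 6.6%, 5.18% and 0%), 1 for the response of KitWsh against WT (1.68%), 2 for OVA KitWsh_MCifngR against KitWsh_MC (3.88%) and 5 for the PBS pair (16.1%). The mean of probe sets gave 1 in WT and 0 in KitWsh_MCigeR mice (2.12% and 0.0491%), and no filter gave 1 in KitWsh and 0 in KitWsh_MCigeR mice (0.572% and 0.033%). The PBS pair gave 0 with quantile normalisation and with centred arrays (1.32% and 1.04%). Centring moved the median of all genes in KitWsh_MCigeR mice to -0.13, against 0.38 as deposited. For OVA KitWsh_MCifngR against KitWsh_MC, quantile normalisation gave a median of 0.01, against 0.18 as deposited. There Col8a2, Col4a3, Col23a1 and Col4a4 were still called and Col27a1 was not.

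Leaving out 1 array at a time gave 0 to 2 genes in WT mice, 0 to 3 in KitWsh, 1 to 8 in KitWsh_MC, 0 in KitWsh_MCifngR, 0 to 15 in KitWsh_MCigeR and 3 to 7 over the 5 kinds. It gave 0, 0 to 3, 0 to 3 and 0 to 13 for the response differences, 0 to 10 and 3 to 13 for the OVA pairs and 0 to 4 for the PBS pair. The shares of all genes called are given above for the omission of KitWsh_MCigeR PBS array 2. They were not counted for the other omissions, so changes in those counts cannot be told from changes over all genes. The array without which each highest count arose was KitWsh_MCigeR PBS array 2, except over the 5 kinds, in KitWsh_MCigeR mice and in their response against KitWsh_MC, where it was one of the other 2 PBS arrays of that kind. The count in WT mice was also 2 without the array labelled WT OVA 4. In KitWsh_MC mice, leaving out any of OVA arrays 1, 2 and 4 or PBS arrays 1 and 2 left 3 genes, and leaving out PBS array 3 left 1. For OVA KitWsh_MC against KitWsh, 1 gene was left without KitWsh_MC OVA array 2 and 0 without KitWsh OVA array 3, and 5 were called without KitWsh OVA array 1. For OVA KitWsh_MCifngR against KitWsh_MC, 3 were called without KitWsh_MC OVA array 1 or 2 or KitWsh_MCifngR OVA array 3. Over the 5 kinds, 5 were called without the array labelled WT OVA 4 and 6 without KitWsh_MCifngR OVA array 1. In KitWsh_MCigeR mice leaving out any OVA array left 0 or 1, and 13 were called without PBS array 1. The PBS pair had 0 without any one of the compared arrays. The response of KitWsh_MCifngR against KitWsh_MC had 1 gene without KitWsh_MC OVA array 3. The causes were not tested. Genes near the background floor could not be compared.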

Other observations

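Col8a2, a type VIII chain, did not have the same range in all PBS groups. Its mean log2 intensity in PBS mice was 7.78 ± 0.15 in KitWsh, 7.75 ± 0.31 in KitWsh_MCifngR, 6.93 ± 0.08 in KitWsh_MC, 6.69 ± 0.25 in KitWsh_MCigeR and 6.79 ± 0.26 in WT mice (SD, n = 3, and n = 4 in WT). All arrays of the first 2 kinds lay above all arrays of the other 3. The difference between KitWsh and WT was the one of these that was tested.

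In the 250 bases before the start, CAGAC, a motif that SMAD proteins bind, stood in 50.0% of the windows of tested collagen genes and in 42.2% of all windows. The E box CANNTG stood in 40.9% of the collagen windows and in 66.2% of all. The windows of all genes were again not limited to tested genes, and neither share was tested.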
